A study of Homo sapiens with 12 samples.

Results

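The 4 genes described here, DPPA2, DPPA3, DPPA4 and DPPA5, carry the name developmental pluripotency associated, after their transcription in pluripotent cells. They were taken by gene symbol from a table of 62753 genes, and all 4 passed the filter of a mean of at least 1 FPKM that left 13166 genes for testing. The table held no other DPPA gene than 20 pseudogenes. The study, an RNA sequencing experiment on how the enzyme OGA bears on the pluripotent state, used H9, an established line of human embryonic stem cells.

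Each of the 4 groups had 3 libraries. In siOGA the cells received a small interfering RNA against OGA, which removes the sugar O-GlcNAc from proteins. In siP300+OGA the genotype is given as OGA overexpression, and the titles name the siRNA against EP300, a histone acetyltransferase, as well. In siP300 the EP300 siRNA was used without it, and siNC is the control siRNA. The growth labels put every group in the naive medium PXGL, which combines LIF, a cytokine, with inhibitors of tankyrase, MEK and protein kinase C, over a layer of mouse embryonic fibroblasts. The titles repeat PXGL for siOGA, siP300 and siNC but not for siP300+OGA. The sources used here give neither the OGA construct nor the siRNA sequences nor the time of harvest. Nor do the labels say whether the libraries of a group were separate cultures, so p-values measure only the spread between these samples.

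DPPA2 and DPPA4 are SAP-domain proteins that bind each other and chromatin, and in mouse embryonic stem cells they hold many developmental promoters in a state open to later activation and switch on cleavage-stage genes. DPPA3, also called STELLA or PGC7, is a maternal factor and an early mark of primordial germ cells. In mouse it binds UHRF1, the protein that brings the maintenance methyltransferase DNMT1 to replicating DNA, and so limits DNA methylation. DPPA5, also called ESG1, has a KH-type fold found in RNA-binding proteins and belongs to a family of neighbouring KH-domain genes active in oocytes and early embryos. In human cells DPPA3 and DPPA5 are widely used marks of the naive state.

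The libraries held 16238225 to 18714572 reads in genes, recovered from the values, and the median SD of a tested gene within groups was 0.0804 on the log2 scale. OGA averaged 8.10 ± 0.771 FPKM in siOGA, 43.8 ± 0.741 in siP300+OGA, 39.8 ± 1.97 in siP300 and 40.5 ± 0.431 in siNC (SD, n = 3 each). In libraries labelled siP300+OGA the OGA transcript itself was not called against siP300 (log2 difference 0.13, limma adjusted p = 0.0636), so that group is called by its label throughout. EP300 averaged 23.5 ± 0.520 FPKM in siOGA, 15.4 ± 0.329 in siP300+OGA, 13.3 ± 0.108 in siP300 and 23.2 ± 0.355 in siNC (SD, n = 3 each). FPKM, read counts scaled by gene length and library size, allow levels of different genes to be set side by side. Differences between groups are on the log2(FPKM + 1) scale from limma, with p-values adjusted over all 13166 tested genes and a threshold of 0.05.

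The DPPA genes were among the more abundant transcripts of these cells, DPPA2 less so, above 70.9% (siP300) to 90.0% (siOGA) of tested genes. Among the 13166 tested genes ranked by mean FPKM, DPPA5 stood at rank 55 in siOGA, 41 in siP300+OGA, 65 in siP300 and 27 in siNC. DPPA3 stood at rank 63 in siOGA, 201 in siP300+OGA, 360 in siP300 and 62 in siNC. DPPA4 stayed between ranks 90 and 208 by its listed length, and DPPA2 between ranks 1321 and 3826. By the listed gene lengths, the order of levels was DPPA5, DPPA3, DPPA4 and DPPA2 in siOGA and siNC, although the libraries of DPPA5 and DPPA3 overlapped in siOGA. In siP300 and siP300+OGA, DPPA4 stood above DPPA3, and no neighbours in the order overlapped. The place of DPPA4 in siNC rests on its listed length of 4967 bases. Per length of the first GENCODE 29 transcript of each gene (2817 bases for DPPA4), a setting chosen after seeing the data, DPPA4 averaged 382 and DPPA3 297 FPKM in siNC, without overlap, which puts DPPA4 above DPPA3 there too. The order in the other 3 groups was the same by either length. The spread of each gene over the 4 groups was tested with an exact permutation test of the F statistic over 15400 divisions of the 12 libraries, which gave p-values of 6.49e-05 for DPPA2 and DPPA5, 0.00013 for DPPA3 and 0.00026 for DPPA4. The smallest p this design can give is 6.49e-05. Adjusted over these 4 tests and that of the DPPA2 to DPPA4 ratio below, the values were at most 0.000325.

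**Figure D1:**
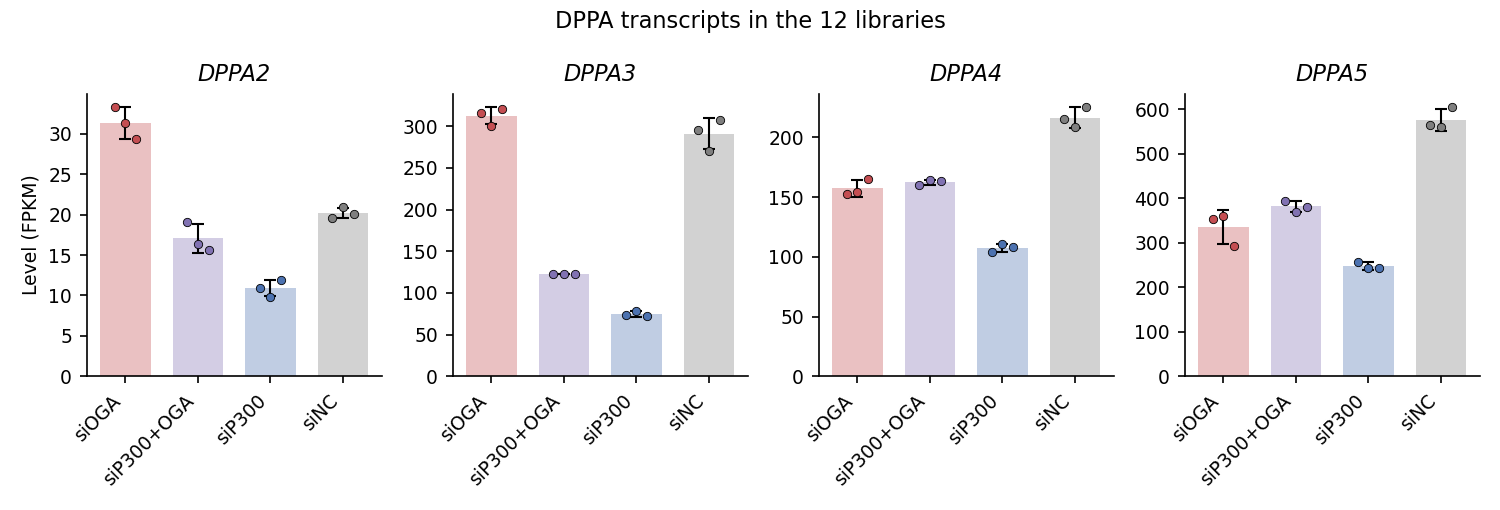
FPKM of DPPA2, DPPA3, DPPA4 and DPPA5 in each of the 12 libraries (points), with the mean and SD of each group of 3 (bars and lines). DPPA3 in siOGA (mean 313) lies near siNC (291) and is lowest in siP300 (74.7), while DPPA2 is highest in siOGA (31.4), and DPPA4 and DPPA5 are highest in siNC.

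The stretch around the annotated start of each gene is shown because the 4 transcripts fell together in siP300 and differed from one another in siOGA. The sequences are RefSeq's on GRCh38.p14, from 250 bases before the start to 50 after it, on the strand of the gene. They lie at chr3:109316468-109316767 (minus strand) for DPPA2, chr3:109337497-109337796 (minus strand) for DPPA4, chr12:7711183-7711482 (plus strand) for DPPA3 and chr6:73354227-73354526 (minus strand) for DPPA5. Capitals mark CACCC, the core recognised by KLF factors, on either strand (GGGTG where it runs on the other strand). In DPPA3 they also mark ATGCAAA, 7 letters of the octamer recognised by POU factors. The full octamer was not searched for.
DPPA2: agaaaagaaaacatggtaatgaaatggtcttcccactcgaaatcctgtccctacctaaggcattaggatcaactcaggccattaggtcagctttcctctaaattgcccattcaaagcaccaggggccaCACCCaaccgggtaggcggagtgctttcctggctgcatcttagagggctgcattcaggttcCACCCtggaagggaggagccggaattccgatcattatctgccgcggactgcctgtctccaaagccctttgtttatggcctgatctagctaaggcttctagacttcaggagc
DPPA4: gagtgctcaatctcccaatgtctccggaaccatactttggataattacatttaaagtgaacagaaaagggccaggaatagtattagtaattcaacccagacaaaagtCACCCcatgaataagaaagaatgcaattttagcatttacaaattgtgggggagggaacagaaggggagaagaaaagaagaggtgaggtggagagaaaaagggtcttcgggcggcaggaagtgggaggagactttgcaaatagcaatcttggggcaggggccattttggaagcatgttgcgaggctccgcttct
DPPA3: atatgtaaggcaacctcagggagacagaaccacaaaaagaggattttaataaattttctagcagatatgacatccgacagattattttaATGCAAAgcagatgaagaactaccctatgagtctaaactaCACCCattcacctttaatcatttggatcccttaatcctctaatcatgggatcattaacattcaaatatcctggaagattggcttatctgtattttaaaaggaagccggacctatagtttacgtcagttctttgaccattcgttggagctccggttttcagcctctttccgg
DPPA5: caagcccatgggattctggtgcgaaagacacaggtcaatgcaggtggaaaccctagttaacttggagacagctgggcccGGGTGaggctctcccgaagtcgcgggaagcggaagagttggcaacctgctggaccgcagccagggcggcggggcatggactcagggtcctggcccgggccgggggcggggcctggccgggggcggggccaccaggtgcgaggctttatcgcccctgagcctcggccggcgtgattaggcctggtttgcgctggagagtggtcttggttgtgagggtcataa
CACCC occurred in all 4 promoters, 2 times in that of DPPA2, and 59.9% of the 35116 promoters of this length in the RefSeq table hold it on either strand. ATGCAAA occurred only in DPPA3, from 161 to 155 bases before the start, and 4.46% of all promoters hold it. The DPPA4 window holds TGCAAAT, the last 7 letters of the octamer. That stretch is not marked and was not counted over all promoters. ACAATG, a SOX motif, was searched on both strands too, and its letters were in none of the 4, against 10.8% of all promoters. None of the matches overlapped another. The DPPA5 promoter held 20 CG dinucleotides and was 66.0% G and C, against 7 CG in DPPA2, 6 in DPPA3 and 5 in DPPA4, with a median of 14 over all promoters. The matches describe the letters in these windows and say nothing of binding.

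DPPA2 (ENSG00000163530, GRCh38 chromosome 3, 109293788 to 109316517, minus strand, 9 exons) was highest with the OGA siRNA. It read 33.3, 31.4 and 29.4 FPKM in siOGA, 19.1, 16.4 and 15.7 in libraries labelled siP300+OGA, 10.98, 9.87 and 11.9 in siP300, and 19.6, 20.9 and 20.03 in siNC. The 3 siOGA libraries stood above all others, the 3 siP300 libraries below all others, and those labelled siP300+OGA just below siNC without overlap. Against siNC it was higher in siOGA (155% of the control, log2 difference 0.61, SE 0.0775, adjusted p = 3.58e-05) and lower in siP300 (54.0%, −0.83, adjusted p = 2.68e-06). The fall in libraries labelled siP300+OGA was small (84.5%, −0.23, adjusted p = 0.022) and did not pass without a minimum level, with the regional median removed as described below, or without siNC replicate 2, siP300+OGA replicate 2 or siP300+OGA replicate 3 (log2 difference −0.21, −0.21 and −0.18). DPPA2 rested on the fewest reads, 244 to 712 per library.

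DPPA4 (ENSG00000121570, chromosome 3, 109326144 to 109337546, minus strand, 7 exons) is the partner of DPPA2 and its neighbour, 9626 bases away on the same strand. It read 153, 154 and 165 FPKM in siOGA, 160.1, 164 and 163 in libraries labelled siP300+OGA, 104, 110.4 and 108 in siP300, and 216, 208 and 225 in siNC. The siNC libraries were the highest and the siP300 libraries the lowest, and siOGA overlapped siP300+OGA between them. Against siNC it fell to 72.6% in siOGA (log2 difference −0.46, SE 0.0389, adjusted p = 1.44e-06), to 75.0% in libraries labelled siP300+OGA (−0.41, adjusted p = 4.3e-06) and, most of all, in siP300, to 49.6% (−1.01, adjusted p = 2.53e-09). Ratios of its FPKM between groups do not depend on the listed length.

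The partners therefore moved apart in siOGA. DPPA2 stood at 21.8%, 20.4% and 17.8% of the DPPA4 level in siOGA, 11.9%, 10.0% and 9.61% in libraries labelled siP300+OGA, 10.6%, 8.94% and 11.01% in siP300, and 9.09%, 10.02% and 8.89% in siNC. The 3 siOGA libraries lay above all 9 others, which ranged from 8.89% to 11.9%. Group means were 20.01% ± 2.05 in siOGA, 10.5% ± 1.23 in siP300+OGA, 10.2% ± 1.09 in siP300 and 9.33% ± 0.605 in siNC (SD, n = 3 each). The spread of the ratio over the 4 groups had an exact permutation p of 0.00682 over 15400 divisions, and the same after adjustment over the 5 tests. The percent itself scales with the listed lengths, and the fold between groups does not.

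**Figure D2:**
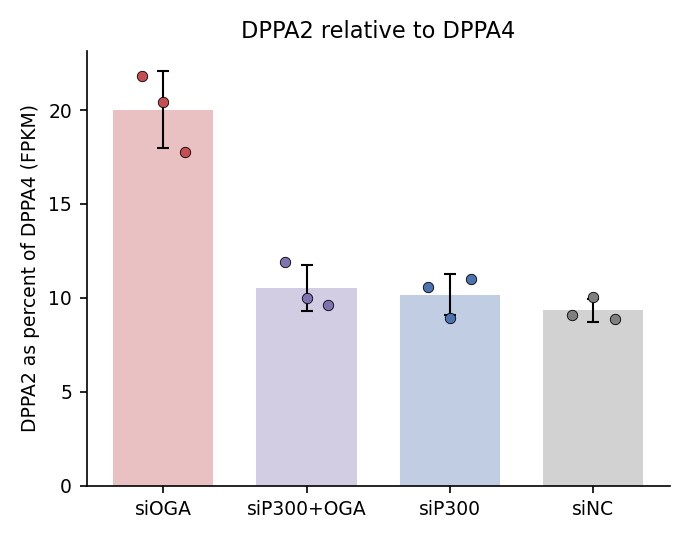
DPPA2 as a percent of DPPA4 (FPKM of each) in the 12 libraries, as points, with the group mean and SD. The siOGA libraries, at 17.8% to 21.8%, lie above the 9 others, at 8.89% to 11.9%.

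DPPA3 (ENSG00000187569, chromosome 12, 7711433 to 7717559, plus strand, 4 exons) was changed most by the EP300 siRNA. It read 316, 301 and 321 FPKM in siOGA, 122.9, 122.8 and 122.6 in libraries labelled siP300+OGA, 73.5, 78.5 and 72.1 in siP300, and 296, 270.2 and 307 in siNC. The siOGA and siNC libraries overlapped and stood far above the other groups, and siP300+OGA stood above siP300 without overlap. Against siNC it fell to 25.7% in siP300 (log2 difference −1.95, SE 0.0475, adjusted p = 8.39e-11), with 0.228% of tested genes below it, and to 42.2% in libraries labelled siP300+OGA (−1.24, adjusted p = 3.76e-09). In siOGA it stood at 107% of the control (0.10, adjusted p = 0.0727), with a 95% interval from −0.000392 to 0.21. That value passed as higher without siNC replicate 3 (0.14) or siOGA replicate 2 (0.13) and with voom on recovered reads (0.11). The voom fit took its library sizes from the FPKM values, so it keeps their scaling. Under quantile normalization the DPPA3 difference was −0.00294, and it passed as lower with the regional median removed.

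The processed pseudogene DPPA3P1 on chromosome X (103961811 to 103962279) is 97.8% identical to the DPPA3 transcript over 465 aligned positions, so reads of DPPA3 could have been assigned to it. Its reads came to 1.11% to 2.06% of those of DPPA3 in each library. It averaged 11.7 ± 3.52 FPKM in siOGA, 4.58 ± 1.16 in libraries labelled siP300+OGA, 2.62 ± 0.217 in siP300 and 10.8 ± 3.11 in siNC (SD, n = 3 each). Thus it stood at 24.2% of siNC in siP300 (log2 difference −1.68, adjusted p = 6.84e-05), against 25.7% for DPPA3, and its own transcription cannot be told from that of DPPA3. Of the 20 DPPA pseudogenes, 13 were listed at 0 in every library and 5 had 1 to 9 reads over all 12 libraries.

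DPPA5 (ENSG00000203909, chromosome 6, 73353063 to 73354276, minus strand, 3 exons) had the highest mean of the members in every group, although in siOGA its libraries overlapped those of DPPA3. It read 353, 360.4 and 293 FPKM in siOGA, 395, 369.8 and 381 in libraries labelled siP300+OGA, 258, 244 and 242 in siP300, and 565, 559.7 and 605 in siNC. The siNC libraries were far the highest and the siP300 libraries the lowest, with siOGA just below siP300+OGA. Against siNC it fell to 58.2% in siOGA (log2 difference −0.78, SE 0.0693, adjusted p = 1.99e-06), to 66.2% in libraries labelled siP300+OGA (−0.59, adjusted p = 2.28e-05) and, most of all, in siP300, to 43.0% (−1.21, adjusted p = 5.28e-08). In RNA from whole cultures, fewer DPPA5-transcribing cells and less RNA per cell cannot be told apart, and this holds for every gene here.

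Set side by side, the members went different ways in siOGA and all fell in siP300. Against siNC, 1 member rose and 2 fell in siOGA. For 4 genes that mix is close to that of all tested genes, of which 34% were higher and 32.9% lower. The median of the 4 members was −0.18 there, against 0.01 for all tested genes. In siP300 all 4 fell, against 35.7% of tested genes lower and 30.2% higher, and the median of the members was −1.11 against −0.04 for all tested genes. The groups of libraries did not overlap for 3 of the 4 members in siOGA, against 68.6% of all tested genes, and for all 4 in siP300, against 70.9%. Both comparisons use the siNC libraries, so their values are not independent.

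In libraries labelled siP300+OGA against siP300, all 4 members rose by about the same amount, against 27% of tested genes higher and 21.2% lower, and none overlapped (59.6% of tested genes). The log2 differences were 0.60 for DPPA2 (adjusted p = 8.98e-05), 0.59 for DPPA4 (adjusted p = 6.18e-07), 0.71 for DPPA3 (adjusted p = 7.15e-07) and 0.62 for DPPA5 (adjusted p = 3.08e-05). These are levels of 151% to 164% of siP300, and each member stood above 97.3% to 98.4% of the tested genes in that comparison. Their median was 0.61, against 0.03 for all tested genes. Against siNC all 4 still were lower in libraries labelled siP300+OGA (30.2% of tested genes lower and 30.8% higher), without overlap (67.7% of tested genes) and with a median of −0.50 against a value close to 0 for all tested genes. EP300 itself stood at 116% of siP300 in libraries labelled siP300+OGA (log2 difference 0.20, adjusted p = 0.000182), and its part in these differences was not tested.

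The siOGA libraries were also set against those with the EP300 siRNA. Against siP300 all 4 members were higher in siOGA without overlap (39.3% of tested genes higher, 34.8% lower, 75% without overlap), from 0.43 for DPPA5 (adjusted p = 0.000176) and 0.55 for DPPA4 (adjusted p = 2.23e-07) to 1.44 for DPPA2 (adjusted p = 2.36e-08) and 2.05 for DPPA3 (adjusted p = 6.16e-11). For DPPA3 this was 418% of siP300, and under quantile normalization the DPPA5 difference was 0.12 and did not pass. Against libraries labelled siP300+OGA, 2 members were higher in siOGA (37.8% of tested genes higher), DPPA2 by 0.84 (adjusted p = 1.84e-06) and DPPA3 by 1.34 (adjusted p = 1.13e-09). DPPA4 did not pass (−0.05, adjusted p = 0.281), and the 95% interval of its difference ran from −0.13 to 0.04, although it passed under quantile normalization (−0.24). DPPA5 was lower by little (−0.19, adjusted p = 0.0267, with 36.1% of tested genes lower), and the call was lost without siOGA replicate 3 (−0.10), siP300+OGA replicate 1 (−0.17) or siP300+OGA replicate 3 (−0.19), without a minimum level and in a fit of only these groups. For 3 of the 4 members these groups did not overlap, against 75.4% of tested genes.

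**Figure D3:**
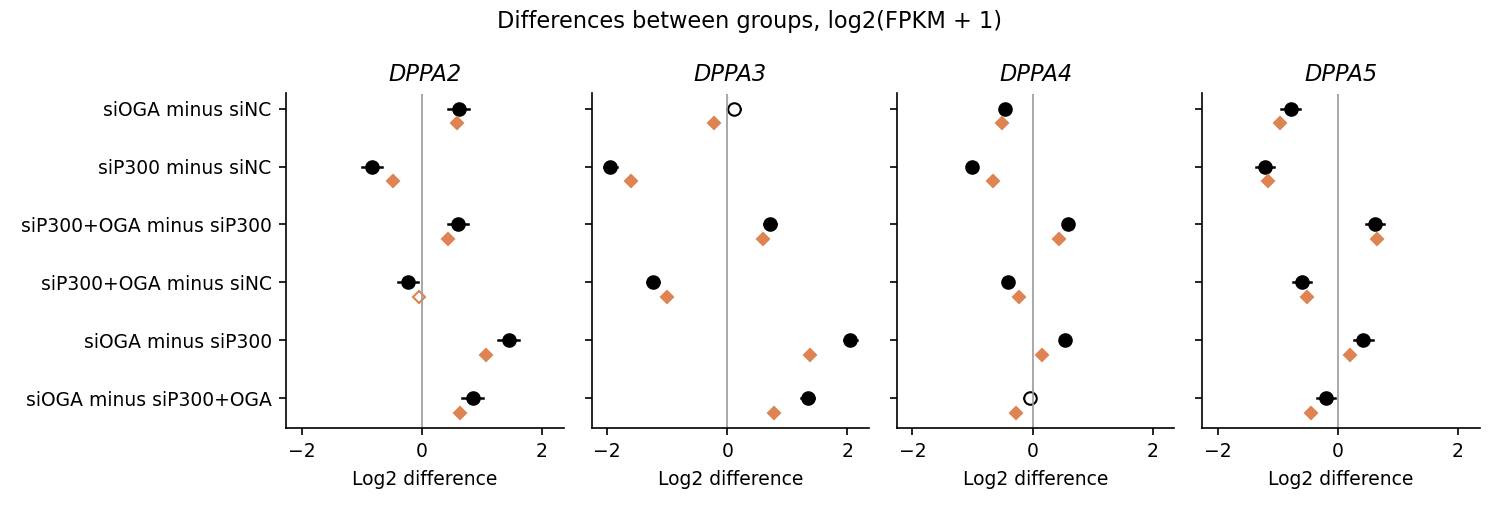
Log2 differences of the 4 members in each comparison, with 95% intervals. Black circles are the values as measured, orange diamonds those with the regional median removed, and open symbols did not pass. All 4 members are below 0 in siP300 against siNC (−1.95 to −0.83) and between 0.59 and 0.71 in libraries labelled siP300+OGA against siP300.

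Genes around the members moved as well. Each member was also set against the median difference of the other tested genes within 10 Mb (48 genes for DPPA2 and for DPPA4, 129 for DPPA3, 43 for DPPA5). Around DPPA3 that median was 0.33 in siOGA and −0.35 in siP300 against siNC. With it removed DPPA3 stood at −0.23 in siOGA (adjusted p = 0.00332) and at −1.60 in siP300. Around DPPA2 and DPPA4 the median in siP300 was −0.35 and −0.34, which left −0.48 for DPPA2 and −0.66 for DPPA4, both still past the threshold. Their differences between siOGA and siNC kept their sizes, at 0.58 for DPPA2 and −0.51 for DPPA4. The rise in libraries labelled siP300+OGA against siP300 was then 0.44 for DPPA2, 0.44 for DPPA4, 0.60 for DPPA3 and 0.65 for DPPA5, all past the threshold. In the same setting DPPA4 in siOGA against libraries labelled siP300+OGA turned to −0.28 and passed, and DPPA2 in siP300+OGA against siNC was −0.04 and did not. It also took DPPA4 to −0.23 in libraries labelled siP300+OGA against siNC, and in siOGA against siP300 it took DPPA4 to 0.16 and DPPA5 to 0.20. In siOGA against libraries labelled siP300+OGA it took DPPA3 to 0.78 and DPPA5 to −0.45. These 5 values passed.

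DPPA3 lies in a cluster of pluripotency genes on chromosome 12. Within 1 Mb of its listed start 36 other genes were tested, of which 21 were higher, 9 lower and 6 not called in siOGA against siNC, and 7 higher, 25 lower and 4 not called in siP300 against siNC. GDF3, a TGF-beta family ligand listed at −21.6 kb from DPPA3, averaged 140 ± 3.34 FPKM in siOGA, 85.3 ± 3.84 in libraries labelled siP300+OGA, 43.6 ± 1.2997 in siP300 and 151 ± 7.71 in siNC (SD, n = 3 each). NANOG, the pluripotency transcription factor listed at 76.4 kb from it, averaged 34.3 ± 1.67 in siOGA, 18.5 ± 1.17 in libraries labelled siP300+OGA, 12.5 ± 0.394 in siP300 and 44.2 ± 4.55 in siNC (SD, n = 3 each). Both fell in siP300 (−1.76 and −1.74) and, by less, in siOGA (−0.11 and −0.35, adjusted p = 0.0493 and 0.000862), where DPPA3 was not called. SLC2A3, a glucose transporter gene at 208 kb, was higher in siOGA by 1.83 and in siP300 by 0.21 against siNC.

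DPPA5 has neighbours of its own family on chromosome 6. KHDC3L, a KH-domain component of the subcortical maternal complex whose listed start is 9.59 kb away, averaged 97.8 ± 4.94 FPKM in siOGA, 179 ± 3.53 in libraries labelled siP300+OGA, 131 ± 6.26 in siP300 and 74.0 ± 1.92 in siNC (SD, n = 3 each). It rose in siOGA (0.40, adjusted p = 1.05e-05) and in siP300 (0.82, adjusted p = 2.69e-08) against siNC, where DPPA5 fell. OOEP, another member of that complex at 15.5 kb, fell in siOGA (−0.72) and in siP300 (−0.86), as DPPA5 did. Of the 13 tested neighbours of DPPA5, 4 were higher, 4 lower and 5 not called in siOGA, and 4 higher, 6 lower and 3 not called in siP300 against siNC. Around DPPA4, 7 genes including DPPA2 were tested, with 2 higher, 3 lower and 2 not called in siOGA and 0 higher, 5 lower and 2 not called in siP300.

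**Figure D4:**
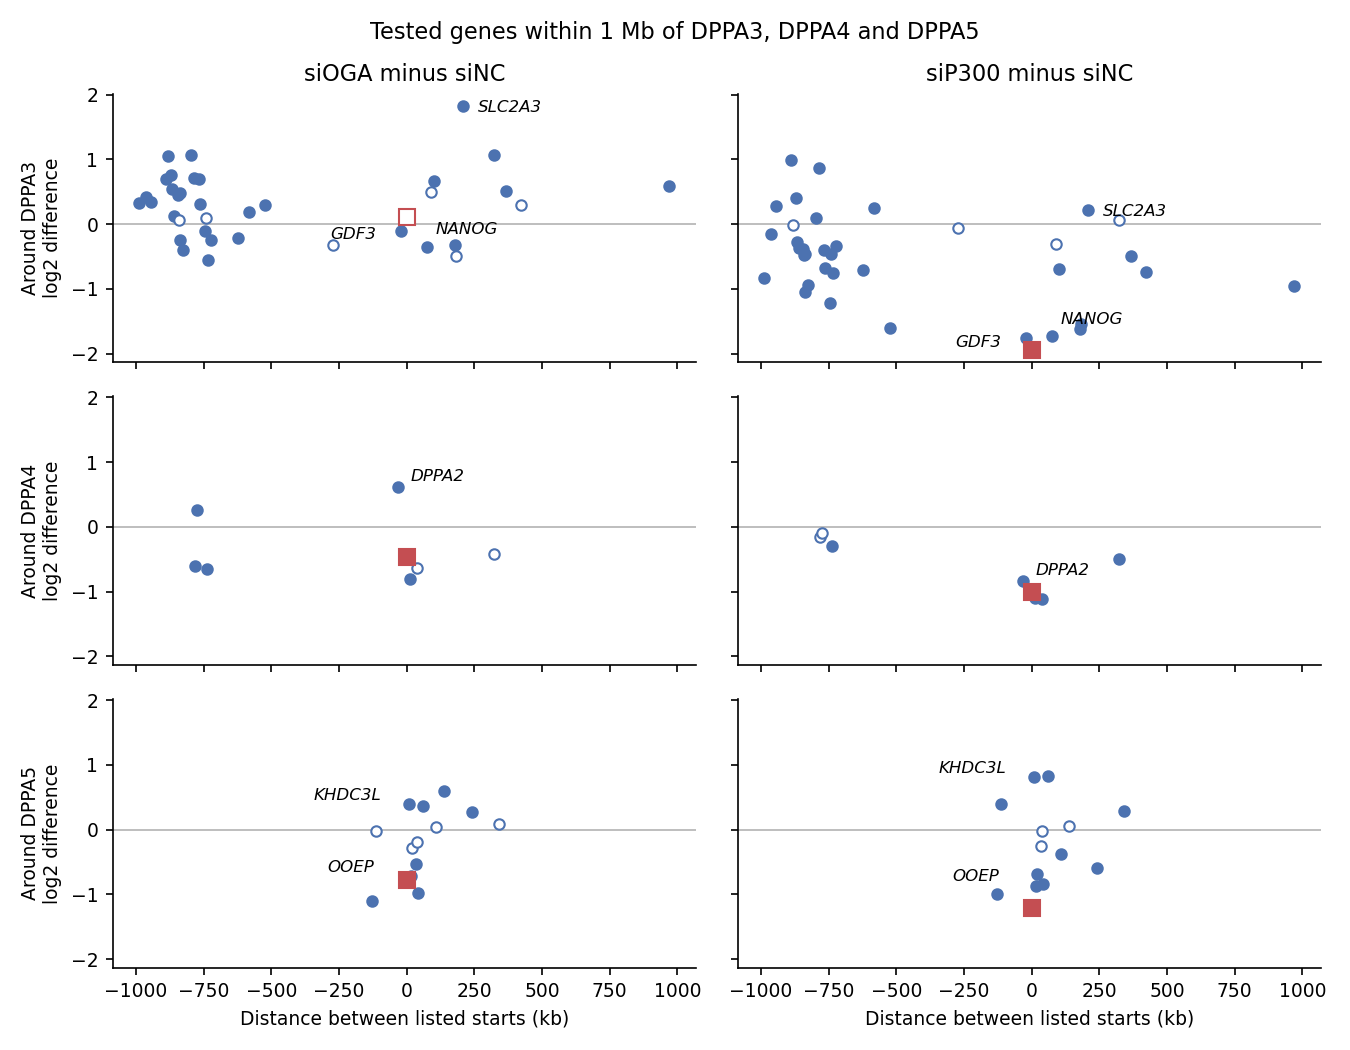
Log2 differences against siNC, in siOGA (left) and siP300 (right), of the tested genes within 1 Mb of DPPA3, DPPA4 and DPPA5, by distance between listed starts in kb. Red squares are the member itself and filled points passed the test, open ones did not. KHDC3L lies above 0 beside DPPA5 in both comparisons, and GDF3 and NANOG lie next to DPPA3 in siP300 (−1.76 and −1.74).

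Genes that DPPA3 works with went both ways, as tested genes did as a whole. Against siNC, 34% of all tested genes were higher and 32.9% lower in siOGA, and 30.2% and 35.7% in siP300. In libraries labelled siP300+OGA against siP300 these shares were 27% and 21.2%. They stand beside the counts of neighbours above and of each list below. Of 8 tested partners in maintenance methylation, 4 were higher, 2 lower and 2 not called in siOGA against siNC (median 0.12), and 2 higher, 5 lower and 1 not called in siP300 (median −0.24). UHRF1, which DPPA3 binds in mouse, fell to 5.71 ± 0.235 FPKM in siOGA, against 14.7 ± 0.561 in siNC (log2 difference −1.23, adjusted p = 1.48e-09), where DPPA3 was not called. In siP300, where DPPA3 fell most, UHRF1 averaged 13.5 ± 0.338 (−0.11 against siNC, adjusted p = 0.0351), and in libraries labelled siP300+OGA 19.1 ± 0.732 (0.47 against siP300). DNMT1 was higher in siOGA (0.26), in siP300 (0.36) and, against siP300, in libraries labelled siP300+OGA (0.13). Of 6 tested genes of de novo methylation and demethylation, 1 was higher and 4 were lower in siOGA, and 3 were higher and 3 lower in siP300. DNMT3L, a cofactor of the de novo methyltransferases, averaged 98.1 FPKM in siOGA, 110 in libraries labelled siP300+OGA, 126 in siP300 and 283 in siNC.

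Of 12 genes of the COMPASS and Polycomb complexes, which act at promoters bound by DPPA2 and DPPA4 in mouse, 5 were higher, 5 lower and 2 not called in siOGA against siNC (median 0.06). In siP300 2 were higher, 6 lower and 4 not called (median −0.14). In libraries labelled siP300+OGA against siP300 7 were higher and 5 not called (median 0.16). MEN1, a scaffold of a COMPASS complex, averaged 3.31 FPKM in siOGA and 12.1 in siNC (−1.61, adjusted p = 2.4e-10). JARID2, a partner of Polycomb complex PRC2, averaged 62.2 in siOGA and 39.0 in siNC (0.66), and 65.8 in libraries labelled siP300+OGA and 34.1 in siP300 (0.93). Of 20 genes linked to the human 8-cell stage only 3 reached the filter, CCNA1, KHDC1L and KLF17. The list was not drawn from targets of DPPA2 and DPPA4, and KLF17 is also on the list of naive markers. All 3 were lower against siNC in siOGA (32.9% of tested genes lower), and a link to DPPA2 was not tested. DUX4 was listed at 0 in all libraries, and ZSCAN4 averaged 0 in siOGA and siP300+OGA, 0.0389 FPKM in siP300 and 0.0259 in siNC.

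Of 7 tested genes of the KH-domain family and the subcortical maternal complex, the relatives and companions of DPPA5, 1 was higher, 4 lower and 2 not called in siOGA against siNC. In siP300 2 were higher and 5 lower. In libraries labelled siP300+OGA against siP300 4 were higher and 3 not called. NLRP7, a maternal-effect gene, averaged 411 FPKM in siOGA, 417 in libraries labelled siP300+OGA, 358 in siP300 and 854 in siNC. The order of its group means was that of DPPA5 (−1.05 in siOGA and −1.25 in siP300 against siNC). The place of siOGA below siP300+OGA was not settled for NLRP7 (log2 difference −0.018, limma adjusted p = 0.504).

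Transcription factors of the naive and core network were mostly lower against siNC. Of 12 tested, 3 were higher, 8 lower and 1 not called in siOGA against siNC (median −0.41), and 1 higher and 11 lower in siP300 (median −0.76). In libraries labelled siP300+OGA against siP300 8 were higher, 1 lower and 3 not called (median 0.32). POU5F1, the octamer-binding factor, whose near-identical pseudogenes make its level uncertain, averaged 534 FPKM in siOGA, 427 in libraries labelled siP300+OGA, 278 in siP300 and 430 in siNC. It rose by 0.61 in libraries labelled siP300+OGA against siP300 (adjusted p = 3.57e-05), within the range of the 4 DPPA genes. PRDM14, a repressor of lineage genes, fell in siOGA (−0.84) and in siP300 (−1.31), and KLF17, a naive-state factor, fell by 2.34 in siOGA and by 1.49 in siP300.

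Over the 12 libraries DPPA4 and DPPA5 had the most alike patterns of any pair of members, with a root mean square difference of 0.156 between their centred log2 values and a Pearson r of 0.946. DPPA2 and DPPA3 had an r of 0.894 but a difference of 0.457, with an SD over the libraries of 0.900 for DPPA3 and 0.548 for DPPA2. The chromosome 3 partners DPPA2 and DPPA4 had 0.434 and 0.573. Among 11890 other tested genes, the nearest to DPPA4 were LIN28B (0.0621), an RNA-binding blocker of let-7 maturation, DENR, LRP4, U2SURP and ZNF727, against a median of 0.422. Nearest to DPPA5 were HTR1D (0.103), ALDH3A2, GLDC, ZNF296 and KLRG2, against a median of 0.497. Nearest to DPPA3 were STRAP (0.154), HPRT1, PEX5, GPR160 and DACT1, against a median of 0.875, and STRAP and PEX5 lie on chromosome 12 as DPPA3 does. Nearest to DPPA2 were UNC119 (0.134), KIF2C, POU3F1, C2CD5 and EPB41L2, against a median of 0.556. These likenesses rest on the same 12 libraries and mostly on differences between the 4 groups.

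Markers of the cell states differed between the groups too, but the lists share genes. KLF17, KLF4, KLF5 and TFCP2L1 are among both the naive markers and the transcription factors above. DNMT3L is a naive marker here and on the de novo methylation list, and THY1 is on the primed and fibroblast lists. Of 11 tested naive markers 9 fell and 2 did not pass in siOGA, and 11 of 11 fell in siP300 against siNC, and their FPKM summed to 517 to 564 in siOGA, 297 to 307 in libraries labelled siP300+OGA, 381 to 394 in siP300 and 872 to 901 in siNC. In libraries labelled siP300+OGA against siP300, where all 4 DPPA genes rose, 4 naive markers rose (KLF17, SUSD2, FGF4 and HORMAD1), 4 fell and 3 did not pass. ALPG, a placental-type alkaline phosphatase, made up most of the lower sum there, at 41.3 FPKM in libraries labelled siP300+OGA and 120.4 in siP300, and reads could be split between it and its near-identical copy ALPP. Of 10 tested primed markers 8 rose in siOGA and 9 in siP300, with sums of 269 to 282 in siOGA, 225 to 238 in libraries labelled siP300+OGA, 224 to 226 in siP300 and 115 to 125 in siNC. Of 6 tested trophectoderm markers 2 rose and 2 fell in siOGA and 5 rose in siP300, with sums of 59.4 to 61.0 in siOGA, 184 to 185 in siP300+OGA, 184 to 194 in siP300 and 33.1 to 35.4 in siNC. The sums were mostly KRT18 and KRT19 in siP300+OGA (97.4 and 82.6) and in siP300 (69.7 and 96.0), and mostly KRT18 in siOGA (48.0). In siP300+OGA against siP300, 1 trophectoderm marker rose, 4 fell and 1 did not pass, with CGA at 0.0588 FPKM against 9.22. Of the primed markers 3 rose, 6 fell and 1 did not pass in that comparison.

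Of 3 tested primordial germ cell markers 1 fell in siOGA and 3 fell in siP300. On the same list NANOS3, DDX4, DAZL, SOX17 and DND1, named after their values were seen, were at or near 0 in every group. TFAP2C, also on it, averaged 31.0 FPKM in siOGA, 19.1 in siP300+OGA, 16.1 in siP300 and 30.7 in siNC. Their list summed to 42.7 to 47.3 FPKM in siOGA, 26.0 to 27.0 in siP300+OGA, 22.8 to 23.2 in siP300 and 45.8 to 49.3 in siNC, led by TFAP2C. Of 5 tested fibroblast markers 5 rose in siOGA, and 4 rose and 1 fell in siP300, with sums of 99.6 to 105 in siOGA, 40.7 to 41.3 in siP300+OGA, 81.1 to 82.5 in siP300 and 28.6 to 30.2 in siNC. On the same list DCN, LUM and POSTN, named after their values were seen, were at or near 0 in every group. COL4A1, the single tested marker of primitive endoderm, rose in both, and that list summed to 7.93 to 9.09 FPKM in siOGA, 5.56 to 6.13 in siP300+OGA, 7.22 to 7.84 in siP300 and 4.51 to 5.03 in siNC. The part of these markers in the DPPA differences was not tested.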

How the data were processed

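Per the labels' protocols, poly(A) RNA was made into dUTP-stranded libraries with molecular identifiers and sequenced as pairs. The submitters' processing notes name the build GRCh38, the aligner HISAT2 2.0.4, StringTie 1.3.4d, cutadapt 1.9, edgeR, DESeq2 and UMI-tools, with no role. The sources used here do not give the strand setting of the counting, so overlapping genes have uncertain levels.

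The deposited values are FPKM, computed by the authors from reads, listed gene length and a library size. All 12 libraries were used and no other columns of values were present. Values were whole multiples of a step per library (within 0.01), which gave reads, or fragments. The library size implied by the step, divided by the reads in genes, differed by group. It was 0.935 to 0.954 in siOGA and 1.016 to 1.026 in siP300+OGA. In siP300 it was 1.056 to 1.060 and in siNC 1.021 to 1.033. The deposited scaling is therefore not by plain read totals, and a scaling by those was not run.

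Comparisons used limma 3.58.1 in R 4.3.3 (trend, 8 residual degrees of freedom) on log2(FPKM + 1), two-sided, adjusted by Benjamini-Hochberg within each of 6 comparisons, and the fit was tested on simulated data. With 3 libraries against 3, the smallest two-sided p of an exact test is 0.1. Replicate numbers did not pair libraries (correlations of deviations −0.06 to 0.13 over 18 pairs). Same-group libraries differed by a chi-square of 2.03 to 6.07 per degree of freedom (12 pairs), so none was counted as a duplicate.

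Members and lists were chosen with earlier results of these data known. Genes named are the members, other DPPA genes, the 5 nearest in pattern, neighbours within 1 Mb, up to 4 per list with the largest differences, UHRF1, DNMT1, KHDC3L, NANOG and ZSCAN4, and OGA and EP300. Those picked from neighbours and lists beyond this rule were chosen after their values were seen. Pseudocounts, filters, scalings, other fits, regional medians, recovered reads and leaving out each library were the alternatives.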

Additional observations from a re-analysis of the deposited data

How the results depend on the processing

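Of the 24 member comparisons, 19 kept direction and side of the threshold under all 24 alternatives. Without a minimum level, DPPA2 in siP300+OGA against siNC (−0.23, adjusted p = 0.0608) and DPPA5 in siOGA against siP300+OGA (−0.19, adjusted p = 0.0741) did not pass, nor did this DPPA5 difference in a fit of only its groups (−0.19, adjusted p = 0.067). Under quantile normalization DPPA3 in siOGA against siNC turned to −0.00294 (adjusted p = 0.964), DPPA5 in siOGA against siP300 was 0.12 and lost its call, and DPPA4 in siOGA against siP300+OGA passed (−0.24). With regional medians removed, DPPA3 in siOGA against siNC passed as lower (−0.23), DPPA2 in siP300+OGA against siNC was lost (−0.0429), and DPPA4 in siOGA against siP300+OGA passed (−0.28). With voom on recovered reads, and the library sizes implied by the FPKM values, DPPA3 in siOGA against siNC passed as higher (0.11). The cause of these changes was not tested.

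Leaving out 1 library gave −0.31 to −0.18 for DPPA2 in siP300+OGA against siNC, 0.0522 to 0.14 for DPPA3 in siOGA against siNC, and −0.25 to −0.10 for DPPA5 in siOGA against siP300+OGA, with adjusted p-values up to 0.0895, 0.291 and 0.0838. Fitting the replicate number as a block changed no call of a member. DPPA3 in siOGA against siNC then had an adjusted p of 0.0931, and 8855 genes were called there, against 8806 without the block. With a mean of at least 5 FPKM only 7018 genes were tested, so the counts called have a smaller total. They were 5117 in siOGA against siNC, 5172 in siP300 against siNC and 4139 in siP300+OGA against siP300. The others were 4784 in siP300+OGA against siNC, 5585 in siOGA against siP300 and 5531 in siOGA against siP300+OGA. With all 13166 genes these were 8806, 8672, 6342, 8022, 9761 and 9734. Depth was least for DPPA2, whose 244 to 712 reads per library limit its precision most.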
